A study of Mus musculus with 10 samples.

Results

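The 48 genes described here encode lysosomal enzymes, lysosomal membrane proteins and transcription factors of the lysosome. They were chosen by name, by a rule that uses no measured value, though earlier results of these data were known. All 48 were found among the 55573 genes of the expression table. They comprise 11 cathepsins and other peptidases, 11 glycosidases, 5 sulfatases, 8 proteins that handle lipids, 9 membrane proteins, 2 acid phosphatases and the transcription factors Tfeb and Tfe3. The cells were bone marrow-derived macrophages (BMDMs) of wild-type female C57BL/6 mice, grown from marrow in MCSF, the growth factor of macrophages. RNA enriched for mRNA was sequenced after 4 h in 5 groups of 2 libraries, which the labels call biological replicates without saying whether they came from separate mice. The vehicle group was the control. The polyU group received 5 µg of a single-stranded uridine RNA, a ligand of the endosomal receptor TLR7, complexed with the lipid carrier DOTAP, and the labels name no DOTAP in the vehicle group. The PNPi+dG/rG group received 1 µM ulodesine, an inhibitor of purine nucleoside phosphorylase (PNP), with 5 µM deoxyguanosine (dG) and 5 µM guanosine (rG). The PNPi+dG/rG+polyU group, here called the combination, received all of these together, and the R848 group received 1 ng/mL of a small-molecule agonist of TLR7. The comparisons ask how the lysosomal genes differed between these treatments.

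Lysosomes are acidic organelles in which hydrolases degrade proteins, glycans, lipids and nucleic acids taken up by endocytosis or delivered by autophagy. In macrophages they also clear phagocytosed material, cut antigens for presentation, and form the compartment in which TLR7 meets its ligands. TFEB and TFE3 are related transcription factors that, when the kinase mTORC1 at the lysosomal surface is inactive, enter the nucleus and bind E-boxes, the short palindrome CACGTG, in promoters of lysosomal genes.

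These E-boxes can be read in the members' own promoters, and 8 promoters picked by hand are shown. Most of them hold the longer matches, Sgsh and Naglu belong to genes with large decreases, and Lamp1 holds the most copies of CACGTG. The sequences were taken from RefSeq promoters of the GRCm38.p6 build, each running from 250 bases before to 50 bases after a transcription start. They are written 5′ to 3′ on the strand of the gene, with matches to CACGTG, TCACGTGA or a longer form (TCACGTGA with a G before and a C after it) in capitals. The capitals mark the longest of the 3 matches at each place. In Sgsh the region is chr11:119355514-119355559 on the minus strand, in Naglu chr11:101070001-101070046 on the plus strand, and in Gla chrX:134601173-134601253 on the minus strand. Those of the cathepsins are chr7:142387899-142388077 on the minus strand for Ctsd and chr2:164833740-164833772 on the plus strand for Ctsa. Those of the membrane proteins are chr8:3500428-3500500 for Mcoln1 and chr8:13159080-13159160 for Lamp1, both on the plus strand, and chr7:126583330-126583405 on the minus strand for Cln3.
Sgsh: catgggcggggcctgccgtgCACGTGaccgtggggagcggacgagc
Naglu: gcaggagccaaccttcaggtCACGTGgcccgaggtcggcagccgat
Gla: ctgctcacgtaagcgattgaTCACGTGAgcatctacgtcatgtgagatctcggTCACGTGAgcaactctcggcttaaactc
Ctsd: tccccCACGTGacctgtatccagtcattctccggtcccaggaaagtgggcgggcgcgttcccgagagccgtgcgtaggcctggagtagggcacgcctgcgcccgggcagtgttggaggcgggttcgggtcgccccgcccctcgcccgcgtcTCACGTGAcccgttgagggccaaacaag
Ctsa: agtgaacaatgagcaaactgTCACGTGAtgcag
Mcoln1: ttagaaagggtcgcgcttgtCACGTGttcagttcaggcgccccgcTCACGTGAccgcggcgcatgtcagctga
Lamp1: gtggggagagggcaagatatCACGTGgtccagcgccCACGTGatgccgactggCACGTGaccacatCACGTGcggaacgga
Cln3: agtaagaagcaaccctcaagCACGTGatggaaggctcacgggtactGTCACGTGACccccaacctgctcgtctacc

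Of the 48 genes, 43 had a promoter in the RefSeq table, and Ctsb, Ctsh, Galns, Npc1 and Asah1 had none. CACGTG occurred in the promoters of 13 of the 43 genes, or 30.2%, against 8.09% of the 27025 genes of the table. The longer TCACGTGA occurred in 5 of the 43, or 11.6%, against 1.13% of all genes. These 5 were Ctsa, Ctsd, Gla, Mcoln1 and Cln3. The longer form occurred in Cln3 alone, against 0.37% of all genes. All 3 motifs are palindromes, so that both strands were searched at once, and each longer motif contains the shorter ones. Lamp1, a heavily glycosylated protein of the lysosomal membrane, held 4 copies of CACGTG within 81 bases. A match describes the letters of the window and says nothing of whether a factor was bound there in these cells.

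**Figure D1:**
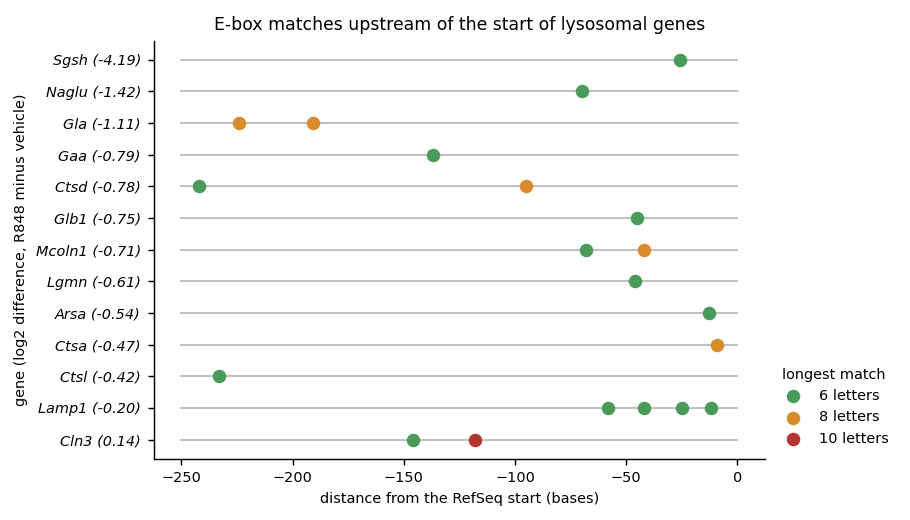
Positions of E-box matches upstream of the RefSeq start of the lysosomal genes that hold any, in bases from the start (x axis), with genes ordered by their log2 difference between R848 and vehicle libraries, which stands beside each name. Colours give the length of the longest match, and the 20 upstream matches lie between 9 and 242 bases from the start, from Sgsh at -4.19 down to Cln3 at 0.14, and centring the libraries moves every one of these differences upward.

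Values were deposited as CPM, in which the reads of a gene are scaled by all reads on genes of the library. Depth ran from 14128123 reads on genes in a combination library to 38392590 in a PNPi+dG/rG library, so that 3 reads correspond to between 0.0781 and 0.212 CPM. All 8 macrophage markers were above this limit in every library, with summed levels of 14320 to 16762 CPM. Lyz2 made up the largest part of this sum, and single markers changed in both directions. Mertk was at 40.3 and 40.6 CPM with vehicle, 9.84 and 8.16 with the combination and 5.36 and 5.66 with R848. Cd14 was at 466 and 482 CPM with vehicle, 1061 and 1124 with the combination and 2985 and 3136 with R848. Fibroblast markers summed to between 0.618 and 1.47 CPM in the vehicle, polyU and PNPi+dG/rG libraries and to 4.11 and 5.28 CPM in the combination libraries, but to 151 and 161 CPM in both R848 libraries, where 7 of 8 markers exceeded 3 reads and Lum did not. Neutrophil markers summed to 23.0 and 25.2 CPM in the R848 libraries, mostly S100a8, against 4.52 to 9.99 CPM elsewhere, with the defining Ly6g under 3 reads. Camp was also higher with R848, at 1.91 and 1.81 CPM, but S100a9, Ngp and Ltf went the other way. The latter lay between 0.617 and 1.46 CPM with vehicle and at most at 0.0532 CPM with R848. In the R848 libraries 6 of the 8 neutrophil markers were under 3 reads. Dendritic cell and lymphocyte markers summed to at most 1.13 and 6.02 CPM. The part of these other transcripts in the R848 results was not tested. In bulk RNA, fewer cells of a type and less RNA per cell cannot be told apart.

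Together the 48 genes took up 4.89% and 5.06% of all reads in the vehicle libraries and 4.99% and 4.80% in the PNPi+dG/rG libraries. The share was 4.57% and 4.70% with polyU, 3.79% and 3.76% with the combination, and 3.40% and 3.55% with R848. The PNPi+dG/rG libraries overlapped with vehicle, while the polyU, combination and R848 libraries lay below vehicle in that order. Per kilobase of exon, the highest levels in vehicle cells were those of Ctss, Ctsb, Psap, Ctsd and Cd68, at 2644, 2258, 2139, 1941 and 1472 CPM per kb, and the lowest was that of Ctsk at 7.69 CPM per kb. All 48 passed the filter of 1 CPM in at least 2 libraries and were tested along with all 11978 genes that passed it.

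On the CPM scale, R848 was associated with the lowest levels of most members. Relative to vehicle, 40 of the 48 genes were lower (83.3%, against 62.9% of all genes tested) and 4 were higher (against 19.2% of all genes), at an adjusted p under 0.05 by limma. A decrease of at least 2-fold was found in 13 members (27.1%, against 30.3% of all genes) and an increase of that size in Ctsc alone (against 8.89%). The members' median log2 difference was -0.71 and that of all genes tested was -0.50. Because so many transcripts had lower CPM with R848, the direction of moderate changes depends on the scale. When every library was centred on its median gene, 23 members were lower (against 34.6% of all genes) and 17 higher (against 43.0%), 5 were lower and 3 higher by at least 2-fold (against 17.6% and 15.0%), and the median was -0.11 with that of all genes at 0.095. Of the 48 members, 31 lay below the median of all genes and 17 above it. Centring cannot change this count, because it shifts all genes of a comparison by the same amount. In centred libraries 23 members were lower and 15 higher with the combination than with R848 (against 37.5% and 28.4% of all genes).

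With the combination, 38 members were lower than with vehicle (79.2%, against 46.7% of all genes) and 9 were higher (against 22.2%). Only Sgsh and Npc1 were lower by at least 2-fold (against 14.3% of all genes), and no member was higher by that amount (against 8.12%). The members' median was -0.46 and that of all genes was -0.22. In centred libraries 30 members were lower and 11 higher (against 33.2% of all genes in each direction), with a median of -0.24. Here 35 of 48 members lay below the median of all genes.

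With polyU alone, differences from vehicle were smaller. Here 21 members were lower (against 18.7% of all genes) and 10 higher (against 20.6%), none of them by 2-fold (against 0.776% lower and 3.21% higher), with a median of -0.068 beside 0.016 for all genes. These counts were 10 lower and 6 higher with plain empirical Bayes, and 15 lower and 7 higher with only the groups compared. Fewer members passed as lower when any 1 vehicle or polyU library was left out. Fewer passed as higher without vehicle replicate 1 or polyU replicate 2. For PNPi+dG/rG alone, no member passed the test in either direction (against 0.392% of all genes lower and 0.409% higher, and 0.00835% and 0.0668% by 2-fold), and 2 members, Npc1 and Ctsl, had an unadjusted p under 0.05 (against 8.98% of all genes), with log2 differences of -0.13 and -0.10. All members' differences in this comparison lay between -0.24 and 0.13. These 4 comparisons share the vehicle libraries.

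**Figure D2:**
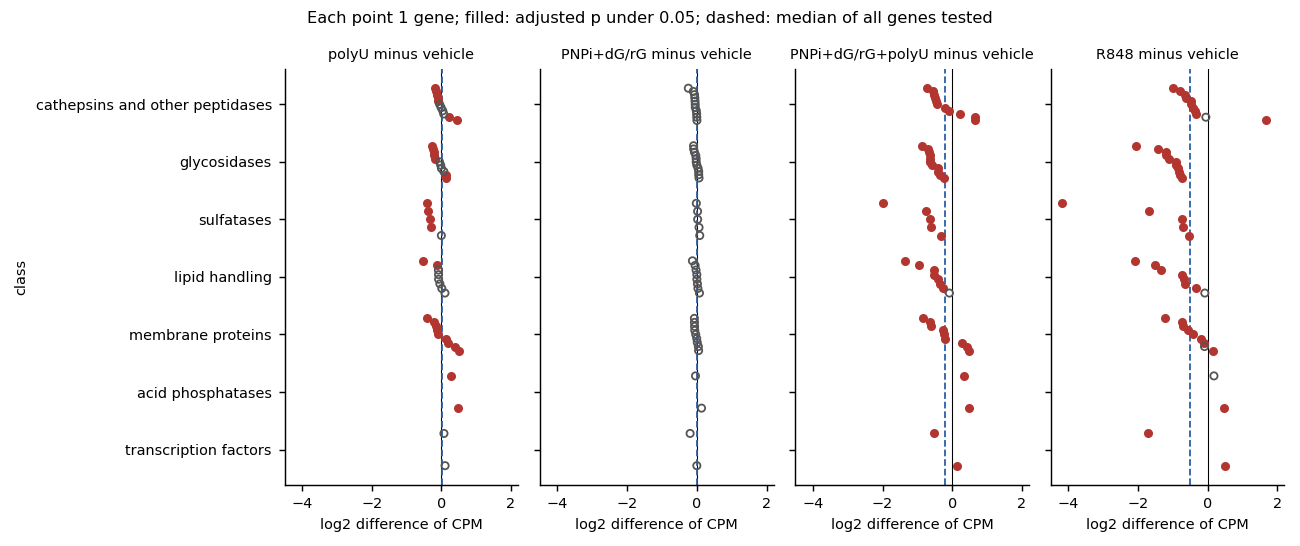
Log2 difference of CPM from vehicle (x axis) for each of the 48 lysosomal genes, 1 point per gene, by class (y axis) and for each of 4 treatments. Filled points passed an adjusted p under 0.05, open points did not, and the dashed line is the median of all genes tested, which lies at -0.50 with R848. Glycosidases and sulfatases lie left of 0 throughout with the combination and R848, although Arsa moves to 0.055 with R848 in centred libraries.

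Levels were graded across treatments in most members. In 30 of the 48 genes (62.5%, against 35.9% of all genes tested) both vehicle libraries lay above both combination libraries, which lay above both R848 libraries. These included all 11 glycosidases and all 5 sulfatases. The opposite order held for Ctsc and Tfe3 (against 8.21% of all genes). In Ctsl, Asah1, Lamp1, Lamp2 and Laptm5 the combination libraries were the lowest and R848 intermediate (5 members, against 6.6% of all genes), and in Ctsh, Laptm4a and Cd63 the combination libraries were the highest and R848 the lowest (3 members, against 7.75%). These are orders of CPM and can change with the scaling. In centred libraries 14 of the 37 called differences between the combination and R848 changed sign. Among them were the glycosidases Gaa, Glb1, Idua and Man2b1 and the sulfatase Arsa.

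**Figure D3:**
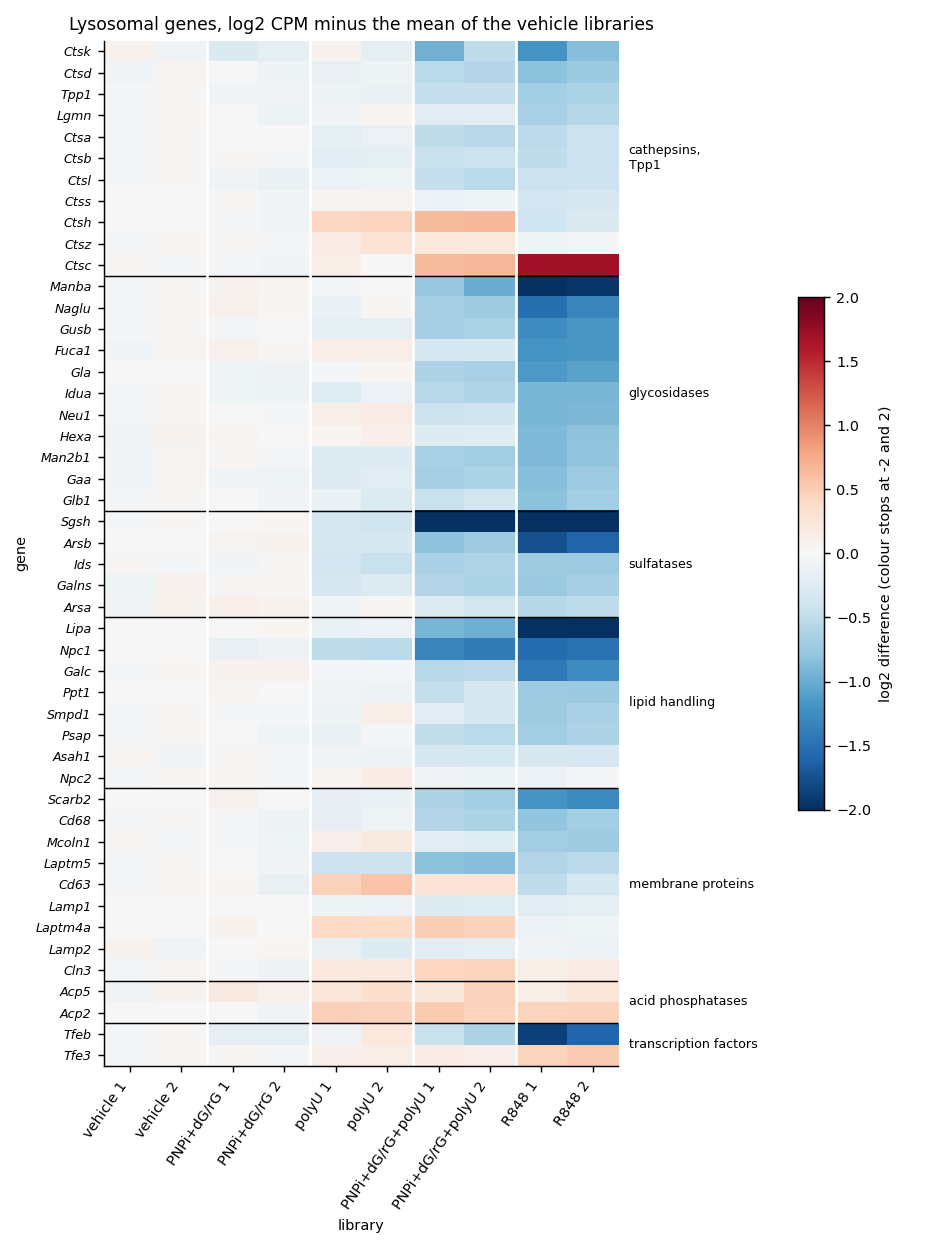
Log2 CPM of the 48 lysosomal genes (rows, by class and then by their response to R848) in each of the 10 libraries (columns), minus the mean of the 2 vehicle libraries. Blue is lower and red higher than vehicle, the colour scale stops at -2 and 2, and both libraries of a group look alike, with R848 the bluest for most genes and red for Ctsc, on the CPM scale that centring shifts upward for R848.

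Among the 5 sulfatases, which remove sulfate groups from glycosaminoglycans and sulfolipids, all 5 were lower with the combination (against 46.7% of all genes) and with R848 (against 62.9%). In centred libraries 4 and 3 of them were (against 33.2% and 34.6%). Sgsh, the sulfamidase that acts in heparan sulfate breakdown, had the largest difference of all 48 genes in both comparisons. It lies on chromosome 11 (GRCm38, 119343425 to 119355536, minus strand) under the identifier ENSMUSG00000005043. Sgsh was at 67.6 and 70.3 CPM with vehicle, 53.9 and 52.5 with polyU, 69.2 and 70.9 with PNPi+dG/rG, 17.6 and 17.4 with the combination and 3.40 and 4.23 with R848. Vehicle and PNPi+dG/rG overlapped, and the other 3 groups were separate from them and from each other. The log2 difference from vehicle was -0.37 (SE 0.091, adjusted p = 0.00419) for polyU, -1.98 (SE 0.091, adjusted p = 1.82e-11) for the combination and -4.19 (SE 0.091, adjusted p = 8.54e-16), or 18.2-fold lower, for R848. In centred libraries the last 2 were -1.77 and -3.59.

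Arsb, which removes sulfate from dermatan and chondroitin sulfate, was at 74.9 and 74.5 CPM with vehicle, 58.8 and 59.6 with polyU, 77.9 and 78.1 with PNPi+dG/rG, 42.7 and 45.7 with the combination and 21.98 and 24.7 with R848. It followed the same order as Sgsh, with a log2 difference from vehicle of -0.76 for the combination (SE 0.066, adjusted p = 5.36e-08) and -1.68 for R848 (SE 0.066, adjusted p = 1.32e-12). Arsa, the sulfatase of sulfatides, changed least in the class. Its levels were 45.8 and 50.7 CPM with vehicle, 46.7 and 49.7 with polyU, 51.7 and 50.4 with PNPi+dG/rG, 40.3 and 37.3 with the combination and 32.6 and 33.8 with R848, a log2 difference of -0.54 for R848 (adjusted p = 3.71e-06) that became 0.055 in centred libraries. Galns, a sulfatase of keratan sulfate, was at 98.9 and 111 CPM with vehicle, 83.0 and 86.6 with polyU, 106 and 106 with PNPi+dG/rG, 70.1 and 67.7 with the combination and 62.2 and 66.3 with R848, a log2 difference of -0.70 (adjusted p = 2.6e-08) that was -0.11 in centred libraries and did not pass there. Ids, the iduronate sulfatase, had the largest polyU response of the class, at 109 and 105 CPM with vehicle and 81.7 and 78.9 with polyU, a log2 difference of -0.42 (SE 0.053, adjusted p = 1.47e-05).

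All 11 glycosidases, which trim sugars from glycoproteins, glycolipids and glycosaminoglycans, were lower with the combination (against 46.7% of all genes) and with R848 (against 62.9%), and 5 of them were at least 2-fold lower with R848 (against 30.3%). In centred libraries Manba alone stayed past 2-fold (against 17.6% of all genes), and Naglu, Gusb, Fuca1 and Gla were at -0.82, -0.61, -0.59 and -0.52. Centring left 10 lower with the combination (against 33.2%), all but Hexa, and all 11 with R848 (against 34.6%). In no other class did all genes stay lower with R848. Their summed share of reads was 0.352% and 0.375% with vehicle, 0.255% and 0.257% with the combination and 0.177% and 0.187% with R848. polyU alone gave 5 lower (against 18.7% of all genes) and 2 higher (against 20.6%), the sialidase Neu1 and the fucosidase Fuca1. The log2 differences of Neu1 and Fuca1 were 0.14 and 0.13, neither of which passed in centred libraries. That of Fuca1 was also lost when vehicle replicate 1 (0.074), polyU replicate 1 (0.14) or polyU replicate 2 (0.13) was left out.

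Manba, a β-mannosidase, had the largest decrease of the glycosidases. It was at 58.8 and 61.4 CPM with vehicle, 58.2 and 60.3 with polyU, 62.8 and 61.8 with PNPi+dG/rG, 35.6 and 30.2 with the combination and 13.4 and 15.6 with R848. The first 3 groups lay between 58.2 and 62.8 CPM, and the last 2 lay below them and apart from each other. The log2 difference from vehicle was -0.87 for the combination (SE 0.085, adjusted p = 1.95e-07) and -2.06 for R848 (SE 0.085, adjusted p = 2.43e-12), and in centred libraries -0.66 and -1.46. Naglu, which acts with Sgsh on heparan sulfate, was at 181 and 190 CPM with vehicle, 169 and 189 with polyU, 198 and 190 with PNPi+dG/rG, 117 and 113 with the combination and 65.2 and 73.9 with R848. Its differences from vehicle were -0.69 (SE 0.065, adjusted p = 1.76e-07) and -1.42 (SE 0.065, adjusted p = 1.42e-11) in the last 2 groups, and polyU did not pass (log2 difference -0.055, adjusted p = 0.549).

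Gusb, the β-glucuronidase, was at 868 and 905 CPM with vehicle, 771 and 772 with polyU, 869 and 880 with PNPi+dG/rG, 560 and 571 with the combination and 374 and 395 with R848. Per kilobase it was the most abundant of the 5 glycosidases past 2-fold, with a log2 difference of -1.21 (SE 0.039, adjusted p = 9.76e-14) for R848. Gla, the α-galactosidase with 2 copies of TCACGTGA in its promoter, was at 240 and 241 CPM with vehicle, 234 and 247 with polyU, 228 and 224 with PNPi+dG/rG, 156 and 154 with the combination and 108 and 114 with R848 (log2 difference for R848 -1.11, SE 0.046, adjusted p = 2.08e-12). Fuca1, which removes fucose, was at 164 and 178 CPM with vehicle, 187 and 188 with polyU, 181 and 173 with PNPi+dG/rG, 133 and 137 with the combination and 74.5 and 75.8 with R848 (log2 difference for R848 -1.18, SE 0.050, adjusted p = 3.11e-12). Vehicle, combination and R848 libraries did not overlap for any of these 3 genes.

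Hexa, a subunit of β-hexosaminidase, had the highest level per kilobase of the glycosidases, and Glb1, the β-galactosidase, had the smallest R848 difference. Hexa was at 893 and 985 CPM with vehicle, 963 and 1005 with polyU, 976 and 946 with PNPi+dG/rG, 783 and 795 with the combination and 511 and 536 with R848, with log2 differences from vehicle of -0.25 and -0.84. Glb1 was at 137 and 140 CPM with vehicle, 126 and 114 with polyU, 138 and 133 with PNPi+dG/rG, 101 and 107 with the combination and 78.5 and 85.9 with R848, a log2 difference of -0.75 for R848 (SE 0.060, adjusted p = 9.41e-09). Glb1 overlaps Tmppe on the same strand, which had a mean of 24.1 CPM against 116 CPM for Glb1, so that some reads could belong to either gene. The remaining glycosidases, Gaa, Idua, Neu1 and Man2b1, had R848 differences between -0.91 and -0.79.

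The 8 genes of lipid handling were lower in 7 cases with the combination (against 46.7% of all genes) and in 7 with R848 (against 62.9%), and the exception was in both cases Npc2. In centred libraries 6 and 4 of them stayed lower (against 33.2% and 34.6%), and 1 and 2 were higher (against 33.2% and 43.0%). Npc1, the membrane protein that exports cholesterol from the lysosome, was at 566 and 564 CPM with vehicle, 398 and 388 with polyU, 507 and 527 with PNPi+dG/rG, 227 and 215 with the combination and 193 and 200 with R848. It had the largest decrease of the 48 genes with polyU alone (log2 difference -0.52, SE 0.042, adjusted p = 1.22e-07), and with the combination (-1.36, SE 0.042, adjusted p = 1.5e-13) it was nearly as low as with R848 (-1.52, SE 0.042, adjusted p = 1.59e-14). The difference between these 2 treatments was 0.17 on the log2 scale (SE 0.042, adjusted p = 0.00241), with R848 lower, but -0.22 with R848 higher in centred libraries. Npc2, the soluble partner that hands cholesterol to NPC1, was at 1047 and 1104 CPM with vehicle, 1111 and 1197 with polyU, 1110 and 1042 with PNPi+dG/rG, 1025 and 1005 with the combination and 987 and 1043 with R848. It did not pass in either comparison (log2 difference -0.083 in both, adjusted p = 0.124 and 0.108), whereas centred libraries put it higher with R848, at 0.51.

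Lipa, the lysosomal acid lipase that hydrolyses cholesteryl esters and triglycerides, had the second-largest R848 difference of all 48 genes. It lies on chromosome 19 (34492318 to 34527474, minus strand) under the identifier ENSMUSG00000024781. Lipa was at 1821 and 1832 CPM with vehicle, 1657 and 1679 with polyU, 1814 and 1884 with PNPi+dG/rG, 967 and 924 with the combination and 420 and 433 with R848. The groups were far apart relative to the gap between libraries, apart from vehicle and PNPi+dG/rG, which overlapped. The log2 difference from vehicle was -0.13 for polyU (SE 0.037, adjusted p = 0.0102), -0.95 for the combination (SE 0.037, adjusted p = 1.99e-12) and -2.10, or 4.28-fold lower, for R848 (SE 0.037, adjusted p = 8.9e-17). In centred libraries the R848 difference was -1.50.

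Galc, which removes galactose from galactosylceramide, was at 115 and 121 CPM with vehicle, 114 and 114 with polyU, 123 and 125 with PNPi+dG/rG, 80.5 and 82.1 with the combination and 43.7 and 49.1 with R848, a log2 difference of -1.35 for R848 (SE 0.058, adjusted p = 3.88e-12). Psap, the precursor of the saposins that present lipids to hydrolases, had the highest level per kilobase of the class. It was at 5743 and 5998 CPM with vehicle, 5361 and 5700 with polyU, 5829 and 5518 with PNPi+dG/rG, 4163 and 4028 with the combination and 3629 and 3845 with R848, with log2 differences of -0.52 and -0.65, and the latter was -0.057 in centred libraries and did not pass. The acid ceramidase Asah1, the thioesterase Ppt1 and the sphingomyelinase Smpd1 had R848 differences of -0.33, -0.73 and -0.68, of which that of Asah1 was 0.27 in centred libraries.

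The peptidases were mixed. Of 11, 8 were lower (against 46.7% of all genes) and 3 higher (against 22.2%) with the combination, and 9 were lower (against 62.9%) and 1 higher (against 19.2%) with R848. In centred libraries the combination gave 6 lower and 4 higher (against 33.2% of all genes in each direction). There R848 gave 2 lower (against 34.6%) and 7 higher (against 43.0%). Ctsc, or dipeptidyl peptidase I, which activates serine proteases of immune cells, rose most of the 48 genes and stands on chromosome 7 (88278085 to 88310888, plus strand). Ctsc was at 342 and 332 CPM with vehicle, 369 and 338 with polyU, 328 and 325 with PNPi+dG/rG, 525 and 533 with the combination and 1080 and 1078 with R848. The first 3 groups lay between 325 and 369 CPM, and the last 2 stood above them and apart from each other. The log2 difference from vehicle was 0.65 for the combination (SE 0.044, adjusted p = 1.94e-09) and 1.68, or 3.2-fold, for R848 (SE 0.044, adjusted p = 6.91e-15), while polyU alone gave 0.067 (adjusted p = 0.247).

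Ctsh, an aminopeptidase that was chosen for mention after its values were seen, had a pattern of its own. It was at 126 and 126 CPM with vehicle, 168 and 173 with polyU, 123 and 122 with PNPi+dG/rG, 196 and 198 with the combination and 96.2 and 103 with R848. The RNA ligand alone and in the combination thus gave higher CPM than vehicle (log2 differences 0.43 and 0.64, adjusted p = 2.76e-06 and 5.53e-09) and R848 gave lower CPM (-0.34, adjusted p = 5.27e-06), although the R848 difference was 0.25 in centred libraries. Ctsz, a carboxypeptidase, rose with polyU and with the combination (0.22 in both, adjusted p = 0.000609 and 0.000275), and its R848 libraries of 1230 and 1273 CPM overlapped with vehicle at 1265 and 1334 CPM.

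Ctss, the cathepsin that trims the invariant chain of MHC class II, had the highest level per kilobase of the 48 genes in vehicle cells. It was at 3582 and 3600 CPM with vehicle, 3665 and 3713 with polyU, 3653 and 3457 with PNPi+dG/rG, 3301 and 3383 with the combination and 2743 and 2850 with R848. Its log2 differences were -0.10 (adjusted p = 0.0156) and -0.36 (adjusted p = 9.88e-08) in the last 2 groups, and both turned positive in centred libraries, at 0.11 and 0.23. The first was lost without combination replicate 1 (-0.086) or vehicle replicate 2 (-0.10). Ctsb, a broad cysteine protease, took the most reads of any member. It was at 13414 and 13918 CPM with vehicle, 11787 and 12073 with polyU, 13918 and 13375 with PNPi+dG/rG, 10062 and 10090 with the combination and 9599 and 10129 with R848, and the test of the last 2 groups gave a log2 difference of 0.031 (SE 0.034, adjusted p = 0.422) that was -0.35, with the combination lower, in centred libraries. Without Ctsb, the other 47 members still summed to 35457 and 36712 CPM with vehicle and 24404 and 25394 CPM with R848. Ctsd, an aspartic protease, was -0.78 with R848 and -0.19 in centred libraries.

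Ctsk, a collagen-degrading protease of osteoclasts, was the least abundant member per kilobase. It was at 12.2 and 11.1 CPM with vehicle, 12.2 and 10.3 with polyU, 9.48 and 10.1 with PNPi+dG/rG, 5.95 and 8.16 with the combination and 5.15 and 6.46 with R848. The last 2 groups lay below vehicle and overlapped with each other, with log2 differences of -0.74 (SE 0.164, adjusted p = 0.00093) and -1.01 (SE 0.164, adjusted p = 3.54e-05). The sum of the 8 osteoclast markers was 290 and 294 CPM with vehicle, 209 and 203 with the combination and 262 and 254 with R848. Among them Nfatc1 was at 87.1 and 91.8 CPM with vehicle, 21.9 and 23.0 with the combination and 22.7 and 21.2 with R848, while Mmp9 was at 10.8 and 11.7 CPM with vehicle and 111 and 109 with R848, and Oscar was under 3 reads in all libraries. Their part in the Ctsk result was not tested.

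Of the 9 membrane proteins, 6 were lower (against 46.7% of all genes) and 3 higher (against 22.2%) with the combination. With R848, 7 were lower (against 62.9%) and 1 higher (against 19.2%). In centred libraries 3 were lower and 3 higher with the combination (against 33.2% in each direction). There R848 gave 2 lower (against 34.6%) and 5 higher (against 43.0%). Scarb2, the receptor that carries β-glucocerebrosidase to the lysosome, was at 158 and 155 CPM with vehicle, 139 and 143 with polyU, 167 and 158 with PNPi+dG/rG, 103 and 97.3 with the combination and 69.0 and 65.1 with R848. It was the single membrane protein to fall at least 2-fold with R848 (log2 difference -1.23, SE 0.052, adjusted p = 2.89e-12) and was -0.63 in centred libraries. Laptm5, a transmembrane protein of leukocyte lysosomes, was at 1363 and 1408 CPM with vehicle, 1040 and 1043 with polyU, 1385 and 1326 with PNPi+dG/rG, 785 and 771 with the combination and 922 and 963 with R848. Its lowest levels were thus in the combination (log2 difference -0.83, SE 0.037, adjusted p = 1.28e-11), below R848 by 0.28 on the log2 scale (adjusted p = 8.05e-06), and its R848 difference of -0.56 was 0.038 in centred libraries. Cd68, a macrophage marker, was at 1816 and 1886 CPM with vehicle, 1657 and 1745 with polyU, 1811 and 1719 with PNPi+dG/rG, 1233 and 1188 with the combination and 1066 and 1161 with R848, with log2 differences of -0.61 and -0.73 that were -0.40 and -0.14 in centred libraries.

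Cln3, the protein of juvenile Batten disease and the member with the longest E-box match, rose in all 3 stimulated groups. It was at 100 and 104 CPM with vehicle, 117 and 117 with polyU, 99.03 and 95.6 with PNPi+dG/rG, 137 and 139 with the combination and 111 and 115 with R848. The combination stood above every other group, with a log2 difference from vehicle of 0.43 (SE 0.048, adjusted p = 9e-07), beside 0.19 for polyU (adjusted p = 0.0048) and 0.14 for R848 (adjusted p = 0.0149). The R848 call was lost without R848 replicate 2 or vehicle replicate 1 (0.11 in both). Laptm4a, a small transporter-like protein, was at 208 and 209 CPM with vehicle, 274 and 269 with polyU, 220 and 211 with PNPi+dG/rG, 294 and 288 with the combination and 193 and 196 with R848. It rose with polyU (0.38, adjusted p = 3.16e-06) and with the combination (0.48, adjusted p = 4.81e-08) and was 0.10 lower on the log2 scale with R848 (adjusted p = 0.0316), a sign that centring turned to 0.49. That call was lost when any 1 vehicle or R848 library was left out (-0.12 to -0.090).

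Cd63, a tetraspanin of late endosomes and secreted vesicles that was chosen for mention after its values were seen, resembled Laptm4a. It was at 184 and 193 CPM with vehicle, 259 and 280 with polyU, 193 and 170 with PNPi+dG/rG, 228 and 227 with the combination and 133 and 147 with R848. The log2 differences were 0.51 for polyU (adjusted p = 2.58e-05), 0.27 for the combination (adjusted p = 0.00205) and -0.43 for R848 (adjusted p = 2.56e-05), the last at 0.16 in centred libraries. The calcium channel Mcoln1, with 2 E-boxes close to its start, was 0.14 with polyU, -0.23 with the combination and -0.71 with R848. Lamp1 and Lamp2, the major membrane glycoproteins, had differences between -0.26 and -0.092 in the latter 2 groups, but 0.39 and 0.50 with R848 in centred libraries.

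Both acid phosphatases rose with polyU and with the combination. Acp2, the lysosomal acid phosphatase, was at 303 and 309 CPM with vehicle, 425 and 423 with polyU, 305 and 290 with PNPi+dG/rG, 439 and 417 with the combination and 417 and 421 with R848. The 3 stimulated groups lay between 417 and 439 CPM and stood above vehicle by 0.47, 0.48 and 0.45 on the log2 scale (SE 0.041, adjusted p = 2.9e-07, 3.93e-08 and 4.81e-08). This likeness holds on the CPM scale only. In centred libraries both acid phosphatases were lower with the combination than with R848 (median log2 difference -0.28, against 37.5% of all genes lower). Acp5, the tartrate-resistant phosphatase of osteoclasts and macrophages, was at 37.5 and 41.6 CPM with vehicle, 46.5 and 49.5 with polyU, 44.7 and 42.003 with PNPi+dG/rG, 46.2 and 54.5 with the combination and 42.7 and 46.8 with R848. It rose with polyU (0.28, adjusted p = 0.0152) and the combination (0.35, adjusted p = 0.0019), and its R848 difference of 0.18 did not pass (adjusted p = 0.0626). The R848 difference did pass with a replicate block (adjusted p = 0.0382), without vehicle replicate 2 (0.25) or R848 replicate 1 (0.24), and in centred libraries (0.77). The polyU call was lost without polyU replicate 2 (0.24) or vehicle replicate 1 (0.21).

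The transcription factors moved in opposite directions. Tfeb was at 48.4 and 49.7 CPM with vehicle, 46.8 and 56.9 with polyU, 42.9 and 42.9 with PNPi+dG/rG, 35.9 and 32.0 with the combination and 13.4 and 16.4 with R848. It fell with the combination (log2 difference -0.53, SE 0.105, adjusted p = 0.000416) and with R848 (-1.72, SE 0.105, adjusted p = 1.2e-09), and it was -1.13 with R848 in centred libraries. Tfe3 was at 177 and 185 CPM with vehicle, 193 and 195 with polyU, 183 and 178 with PNPi+dG/rG, 200 and 195 with the combination and 247 and 258 with R848. Tfe3 rose with the combination (0.13, SE 0.044, adjusted p = 0.0175) and with R848 (0.48, SE 0.044, adjusted p = 5.68e-08), the former lost without combination replicate 1 (0.11) or vehicle replicate 1 (0.098). Transcript levels do not measure the activity of these proteins, which is set largely by their location in the cell.

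**Figure D4:**
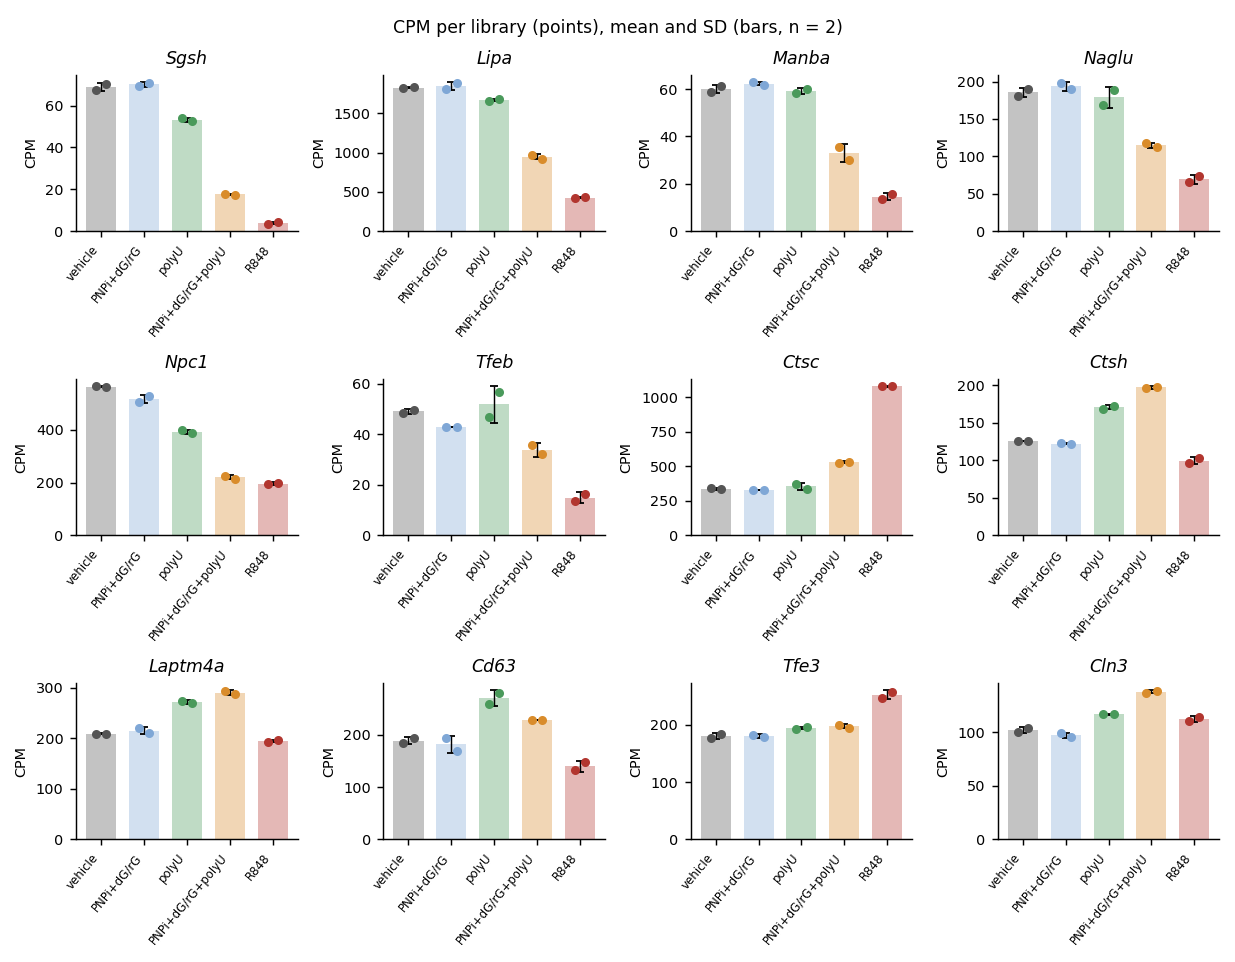
CPM of 12 lysosomal genes (y axes, from 0) in the 5 groups (x axes), with a point per library and bars for the mean and SD of 2 libraries. On the CPM scale Sgsh, Lipa, Manba, Naglu, Npc1 and Tfeb step down from vehicle to the combination to R848, and Ctsc and Tfe3 step up. Ctsh, Laptm4a, Cd63 and Cln3 are higher with the combination than with R848 on that scale. In centred libraries the order of the combination and R848 is reversed for Npc1 and Cln3.

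To ask what the PNP inhibitor and nucleosides added to the RNA ligand, the combination was compared with polyU. Of the 48 genes, 39 were lower (81.3%, against 47.5% of all genes) and 3 higher (against 15.8%), with a median of -0.37 beside -0.24 for all genes, and Sgsh alone differed by 2-fold (log2 difference -1.60, SE 0.091, adjusted p = 4.69e-10, against 10.2% of all genes lower by 2-fold and 5.29% higher). The higher genes were Ctsc, Ctsh and Cln3, at 0.58, 0.21 and 0.24. In centred libraries 23 were lower (against 25.3% of all genes) and 11 higher (against 30.1%). The interaction is the log2 difference made by PNPi+dG/rG in the presence of polyU minus that made in its absence. It passed the test below 0 in 34 members (70.8%, against 38.9% of all genes) and above 0 in 3 (against 11.8%), with a median of -0.33 beside -0.27 for all genes. The same 3 genes passed above 0, at 0.63 for Ctsc, 0.26 for Ctsh and 0.31 for Cln3. Below 0 the largest interactions were those of Sgsh at -1.63 (SE 0.129, adjusted p = 5.78e-08, the one member past 2-fold, against 8.87% of all genes below and 4.55% above), Manba at -0.91, Lipa at -0.84, Npc1 at -0.71 and Naglu at -0.70. In centred libraries 11 members passed below 0 (against 17.0% of all genes) and 10 above (against 24.1%), and these 5 genes stayed below 0, between -1.34 and -0.41.

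The combination and R848 were compared directly. Relative to R848, 33 members were higher with the combination (68.8%, against 53.9% of all genes) and 4 were lower (against 16.9%), with a median of 0.27 beside 0.31 for all genes. At least 2-fold upward were 4 genes (against 16.9%), namely Sgsh at 2.21, Tfeb at 1.19, Manba at 1.18 and Lipa at 1.15, and Ctsc differed downward at -1.03 (against 3.86%). The other lower genes were Tfe3 at -0.35, Laptm5 at -0.28 and Lamp2 at -0.12. In centred libraries 15 were higher (against 28.4% of all genes) and 23 lower (against 37.5%), the median was -0.11, and only Sgsh at 1.82 (against 9.97%) and Ctsc at -1.41 (against 7.11%) were past 2-fold.

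The members with and without an E-box were set side by side. For R848 minus vehicle on the CPM scale, the 13 genes with CACGTG had a median of -0.71, with 12 lower and 1 higher. The 30 genes without it had a median of -0.73, with 23 lower and 3 higher (against 62.9% of all genes lower and 19.2% higher). For the combination minus vehicle the medians were -0.50 and -0.44. There 12 of 13 and 22 of 30 were lower (against 46.7% of all genes), and 1 and 7 were higher (against 22.2%). The 5 genes with no promoter in the table are in neither set. Among the genes with the motif were both Sgsh, with the largest decrease, and Cln3, which was the one that rose. These values are a description and were not tested.

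A further 86 lysosomal genes outside the 48 were read from lists, and 83 of them passed the filter. With R848, 71 of the 83 were lower (against 62.9% of all genes) and 7 were higher (against 19.2%), with a median of -0.74. A decrease of at least 2-fold was found in 26 (against 30.3%). With the combination, 52 were lower (against 46.7%) and 13 higher (against 22.2%), with a median of -0.26. In centred libraries R848 gave 39 lower (against 34.6%) and 29 higher (against 43.0%). The 17 channels and transporters had the lowest median of these lists with R848, at -1.53, with 11 lower by at least 2-fold (against 30.3%). Mfsd12, a cysteine transporter, was at 582 and 604 CPM with vehicle, 175 and 173 with the combination and 39.4 and 41.4 with R848 (log2 difference for R848 -3.88, SE 0.048, adjusted p = 2.45e-18). The calcium channel Mcoln2 went the other way, from 44.5 and 48.5 CPM with vehicle to 140 and 151 with the combination and 146 and 149 with R848 (log2 difference for R848 1.67, SE 0.077, adjusted p = 3.27e-11).

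Of the 16 subunits of the V-ATPase, the proton pump that acidifies the lysosome, 13 were lower (against 62.9% of all genes) and 1 higher (against 19.2%) with R848. In centred libraries 5 were lower (against 34.6%) and 9 higher (against 43.0%) with R848. Atp6v0a1 was at 568 and 614 CPM with vehicle, 278 and 263 with the combination and 154 and 160 with R848, a log2 difference of -1.91 for R848 (adjusted p = 8.17e-15). Atp6v1e1 rose from 166 and 176 CPM with vehicle to 275 and 280 with R848 (0.70, adjusted p = 8.94e-10). Among 21 other hydrolases and cofactors, 20 were lower with R848 (against 62.9% of all genes) and 1 higher (against 19.2%). The latter rose by at least 2-fold (log2 difference 1.08, against 8.89% of all genes). In centred libraries 11 of the 21 were lower (against 34.6%) and 5 higher (against 43.0%). Hyal1, a hyaluronidase, was at 25.8 and 28.8 CPM with vehicle, 4.95 and 3.80 with the combination and 1.81 and 2.08 with R848 (log2 difference -3.81, adjusted p = 5.42e-13). Hyal1 overlaps Naa80 and Hyal3 on the same strand, so that some reads could belong to those genes.

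All 12 genes of the Ragulator, Rag GTPase and folliculin complexes, which recruit mTORC1 to the lysosome, were lower with R848 (against 62.9% of all genes), 7 of them in centred libraries (against 34.6%). Rragd was at 43.9 and 43.0 CPM with vehicle, 16.1 and 12.8 with the combination and 1.91 and 1.96 with R848, a log2 difference of -4.49 (SE 0.105, adjusted p = 2.03e-15). The sorting list had 10 of 12 genes lower (against 62.9% of all genes) and 1 higher (against 19.2%) with R848. Of these 12 genes, 4 were lower (against 34.6%) and 7 higher (against 43.0%) in centred libraries. On the CPM scale the adaptor Gga2 was at -2.03 with R848, and the cation-dependent mannose 6-phosphate receptor M6pr was higher at 0.45. The other 2 factors of the family of Tfeb both rose. Tfec, the macrophage-restricted member, was at 9.03 and 9.61 CPM with vehicle, 21.9 and 22.7 with polyU, 10.9 and 11.8 with PNPi+dG/rG, 80.3 and 78.6 with the combination and 106 and 112 with R848. Its log2 difference was 3.09 for the combination (SE 0.076, adjusted p = 7.8e-15) and 3.54 for R848 (SE 0.076, adjusted p = 6.49e-16). Mitf differed by 0.46 and 0.51 in the same comparisons (adjusted p = 0.000146 and 4.43e-05). Of 6 cathepsin inhibitors 3 passed the filter, and Stfa1, Stfa2 and Stfa3 did not.

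**Figure D5:**
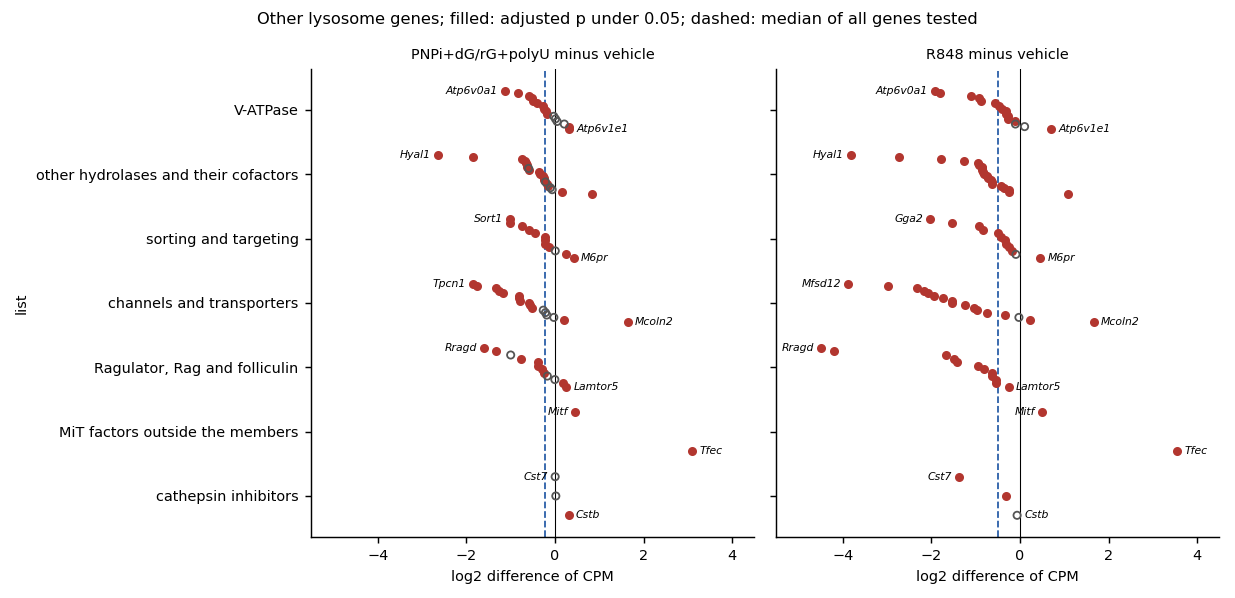
Log2 difference of CPM from vehicle (x axis) for 83 further lysosomal genes by list (y axis), for the combination on the left and R848 on the right. Filled points passed an adjusted p under 0.05, the dashed line is the median of all genes tested, and the labelled genes include Rragd at -4.49 and Tfec at 3.54 with R848, which keep their direction in centred libraries at -3.89 and 4.14.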

How the data were processed

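RNA of mouse BMDMs was sequenced from 10 libraries. The authors aligned reads with STAR 2.27a to GRCm38 after demultiplexing with bcl2fastq 2.19.1.403, per the labels. They counted reads per gene, normalized the counts in Partek Flow and deposited CPM values to which 0.0001 had been added. All low values tested were whole multiples of 1 read (within 0.05 of a read) before that offset. Symbols came from GENCODE annotation of the same build.

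The log2 of the deposited CPM was tested with limma 3.58.1 in R 4.3.3 (trended, robust empirical Bayes, statmod 1.5.0) on all 10 libraries and the 11978 genes with at least 1 CPM in 2 or more libraries, with no covariate, in 7 comparisons. P-values were adjusted by Benjamini and Hochberg over all genes, with calls at 0.05. Fold changes are on this scale. The method was run on simulated data in which a small set of genes was changed. That setting cannot show how the method behaves when most genes differ. Promoters and tables were handled with pandas 2.3.3.

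The members were picked by name, as a set of lysosomal genes, and they and the other lists were chosen with earlier results of these data known. Members given in full were those past 2-fold in any comparison and, in each class, the highest per kb of exon and those with the highest and lowest differences in the combination and R848 comparisons. One result is not reported here. Other genes were named after their values were seen. Alternatives were pseudocounts of 0.1 and 1, other filters, centred libraries, plain empirical Bayes, only the groups compared, a replicate block and leaving out each library. The planned edgeR tests need read counts and were not run, since the offset kept these CPM values from being taken as counts.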

Additional observations from a re-analysis of the deposited data

Results flagged for a closer look

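Sgsh, the heparan sulfate sulfamidase, stood out for a response to PNPi+dG/rG that differed between cells with and without polyU. Without polyU the libraries were at 67.6 and 70.3 CPM with vehicle and 69.2 and 70.9 CPM with PNPi+dG/rG, and with polyU they were at 53.9 and 52.5 CPM without and 17.6 and 17.4 CPM with PNPi+dG/rG. The test of that difference gave a log2 interaction of -1.63 (SE 0.129, adjusted p = 5.78e-08 by limma), and leaving out any 1 library gave values between -1.66 and -1.60.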

How the results depend on the processing

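Of 137 differences of single named members, all kept their direction and their side of the threshold with pseudocounts of 0.1 and 1, with a filter on the mean and with the replicate block. The block paired libraries that share only a number (correlations of deviations between -0.286 and 0.109), and ended no call of any of the 48 genes. It added 1, that of Acp5 with R848, and 12 with the PNPi+dG/rG numbers crossed, an alternative chosen after seeing the data. Calls were lost for 13 of the 137 with plain empirical Bayes, 4 with no filter and 4 with only the groups compared. In centred libraries 17 lost their call and another 17 changed sign. Over all 48 genes, 41 of 238 called differences changed sign there. Among the 137, for the combination minus R848 these were Npc1 (-0.22), Ctss (-0.13), Glb1 (-0.044), Arsa (-0.16), Psap (-0.25), Cd68 (-0.26) and Cln3 (-0.089). For R848 minus vehicle they were Ctss (0.23), Arsa (0.055), Laptm5 (0.038) and Laptm4a (0.49), for the combination minus polyU Ctss (0.11), Glb1 (0.047) and Npc2 (0.071), for the combination minus vehicle Ctss (0.11), and for the interaction Ctss (0.16) and Npc2 (0.10). Centring also gave medians of -0.11 for polyU, -0.048 for PNPi+dG/rG, -0.24 for the combination and -0.11 for R848 minus vehicle. For R848 minus vehicle it left 17 members higher and 23 lower, with 3 and 5 past 2-fold. It gave 11 higher, 23 lower and a median of -0.11 for the combination minus polyU, 15 higher, 23 lower, 1 higher by 2-fold and a median of -0.11 for the combination minus R848, and 10 higher, 11 lower and a median of -0.044 for the interaction. Plain empirical Bayes gave 6 members higher and 10 lower with polyU. Leaving out any 1 vehicle or polyU library left fewer members passing as lower with polyU. Fewer passed as higher without vehicle replicate 1 or polyU replicate 2. With single libraries left out, the median ran from -0.71 to -0.67 for R848 minus vehicle and from -0.40 to -0.34 for the combination minus polyU. It ran from 0.24 to 0.30 for the combination minus R848 and from -0.37 to -0.30 for the interaction. In the interaction, more members were lower by 2-fold without combination replicate 1. Calls of single genes that leaving out a library ended, beside those given above, were those of Cd68, Glb1 and Scarb2 with polyU, Arsa, Cd68 and Psap for the combination minus R848, Glb1 for the combination minus polyU, and Ctss, Npc2 and Tfeb for the interaction. The cause of these shifts was not tested. A group left with 1 library was assumed to vary like the others. The edgeR quasi-likelihood test and TMM scaling were not run, because the offset in the deposited CPM kept them from being taken as counts.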
